A study of Homo sapiens with 8 samples.

Results

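The keratin genes were followed in MDA-MB-231 cells, an established line of triple-negative, mesenchymal-like human breast cancer, with and without knockdown of integrin α3. A member was any gene whose symbol is KRT followed by a number and at most 1 letter from A to C, read from features annotated to that gene alone. At the exon level the arrays held 55 such genes of 16909 named genes, 29 of type I and 26 of type II, on 691 of 287329 probesets (the groups of probes that read single exons or parts of exons). At the gene level 29 keratins, 19 of type I and 10 of type II, had a transcript cluster (the array maker's unit for a whole gene) with 1 symbol, of 22011 clusters. A further 20 clusters and 58 probesets list a keratin beside other symbols and were left out. Keratins without a cluster of 1 symbol were read only at the exon level. Among them are KRT5, KRT6A, KRT6B, KRT6C, KRT16, KRT17, KRT37, KRT75, KRT81, KRT83, KRT85 and KRT86.

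The 2 groups were MDA-MB-231 cells carrying a lentivirus for stable expression of a control shRNA and the same line carrying a lentivirus for an shRNA against α3. Each group had 2 arrays, described as biological replicates, and each array was deposited once as gene-level and once as exon-level values, which makes 8 samples of 4 hybridisations. Both groups were grown with 10% serum on standard plastic, and both carried a lentivirus and an shRNA. The labels do not say which hairpin was used or whether the lines were clones or pools, so loss of α3 and other effects of the hairpin or of the lines cannot be told apart.

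Keratins are the intermediate filament proteins of epithelial cells. A type I (acidic) keratin pairs with a type II (basic) keratin, and the pairs assemble into filaments that are anchored at desmosomes and at hemidesmosomes. KRT8 and KRT18, with KRT7 and KRT19, are the keratins of simple epithelia such as the luminal breast; KRT5 and KRT14 mark the basal cells of stratified epithelia; the hair keratins KRT31 to KRT40 and KRT81 to KRT86 build the hair shaft, and some are also found in tumour cells. Integrin α3β1 is a laminin receptor of epithelial cells.

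ITGA3, the gene of the targeted integrin, read 3480 and 3529 in the control arrays and 619 and 644 in the knockdown arrays. The log2 difference, always knockdown minus control on log2(intensity + 16), was -2.44 ± 0.073 (standard error, SE; n = 2 and 2; limma adjusted p = 8.04e-05). All 6 markers listed for MDA-MB-231-like mesenchymal cells were above the dim filter, with vimentin (VIM) at 4761 and 5241 in controls and at 4347 and 4534 in knockdown arrays. Of these 6, AXL was lower (log2 difference -0.52, adjusted p = 0.00691), the other 5 did not pass, and the median log2 difference over all 6 was -0.20. Of 7 measured luminal breast markers 5 were above the dim filter, and the hormone receptor genes ESR1 and PGR were dim. GATA3 read 144 and 147 in controls and 164 and 182 in knockdown arrays, and did not pass. FOXA1 read 129 and 117 against 139 and 107, and did not pass either. KRT8, KRT18 and KRT19, also on that list, are described below. Of 7 measured epithelial markers, CLDN4 was higher (log2 difference 1.33), CLDN7 and CD24 were lower (-0.75 and -1.16), EPCAM did not pass, and 3 were dim, including CDH1, the E-cadherin gene, at 25.4 and 28.8 in controls against 177 and 168 in knockdown arrays. Their summed level was 1626 and 1777 in controls and 1765 and 1812 in knockdown arrays. Their part in the keratin results was not tested. Markers of fibroblasts (4 of 5 dim), keratinocytes (2 of 3 dim) and leukocytes (2 of 4 dim, PTPRC at 25.1 to 27.4) summed to 298 to 303 against 316 to 319, 319 to 341 against 295 to 334, and 1969 to 2034 against 1658 to 1709 in control and knockdown arrays, with none of their genes at 0. CD68 made most of the leukocyte sum. In cultures measured in bulk, a change in every cell and a change in the share of cells that express a gene cannot be told apart. No label says that the replicates were grown apart, so p-values measure the spread between these arrays.

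The 34 keratin genes with an entry in the RefSeq promoter table gave 38 windows of 250 bases before a start site. KRT40 and KRT85 each gave more than a single window. The other 21 genes had no entry, among them KRT18, KRT19, KRT80, KRT81 and KRT86, so the counts below leave them out. The windows of KRT4 and KRT8 are shown because both genes had a summary that rose, as did KRT18, which has no window. That of KRT10 is shown because it carries the searched motif that most keratin windows held. All 3 are printed 5′ to 3′ on the minus strand of GRCh38.p14, with a motif match in capitals: KRT4 from chr12:52814117-52814366, KRT8 from chr12:52926470-52926719 and KRT10 from chr17:40822615-40822864.
KRT4: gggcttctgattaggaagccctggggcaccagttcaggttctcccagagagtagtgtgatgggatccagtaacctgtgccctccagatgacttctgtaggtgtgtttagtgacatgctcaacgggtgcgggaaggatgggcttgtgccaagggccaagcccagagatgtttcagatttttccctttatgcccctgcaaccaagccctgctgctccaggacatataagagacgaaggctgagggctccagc
KRT8: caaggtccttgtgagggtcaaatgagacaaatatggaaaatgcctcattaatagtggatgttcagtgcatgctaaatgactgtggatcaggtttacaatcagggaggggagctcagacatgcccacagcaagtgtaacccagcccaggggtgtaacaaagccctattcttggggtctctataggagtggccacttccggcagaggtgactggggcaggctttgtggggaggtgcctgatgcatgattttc
KRT10: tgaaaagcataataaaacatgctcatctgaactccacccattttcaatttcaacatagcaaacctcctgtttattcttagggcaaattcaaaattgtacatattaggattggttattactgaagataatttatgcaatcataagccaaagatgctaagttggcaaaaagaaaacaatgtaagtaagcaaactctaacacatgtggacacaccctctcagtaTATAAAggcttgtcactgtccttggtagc
Searched on both strands, the letters TATAAA, which bind the general initiation factors, were found in 21 of 38 keratin windows (55.3%) and in 10.7% of all 35116 windows of the same length. In KRT10 its first base lies 29 bases before the start. A match counted wherever it lay, from 27 bases before the start in KRT27 to 228 in KRT84. Not every match therefore lies where that of KRT10 does. GGGCGG (a GC box) was found in 4 keratin windows (10.5%) against 42.6% of all, and TGANTCA (the AP-1 element) in 0 against 6.57%. Neither KRT4 nor KRT8 held any of these letters in its window. Any other start sites of these genes were not searched. These matches describe the windows only, and the members of a gene family share ancestry and neighbourhood.

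At the gene level, 10 of the 29 keratin clusters passed the filter on dim features, which left out the lower 40% by mean signal (below an intensity of about 106.5). KRT4 and KRT18 were higher in the knockdown arrays, KRT19 and KRT80 were lower, and KRT7, KRT8, KRT9, KRT10, KRT13 and KRT14 did not pass at an adjusted p of 0.05. Of all 13207 clusters tested, 5.99% were higher and 15.3% were lower. The 10 tested keratins had a median log2 difference of 0.13, against -0.055 over all tested clusters. With 10 members, 2 calls in each direction are too few to set against those shares, and the call for 1 of the 4 genes, KRT18, was lost whichever array was left out.

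**Figure D1:**
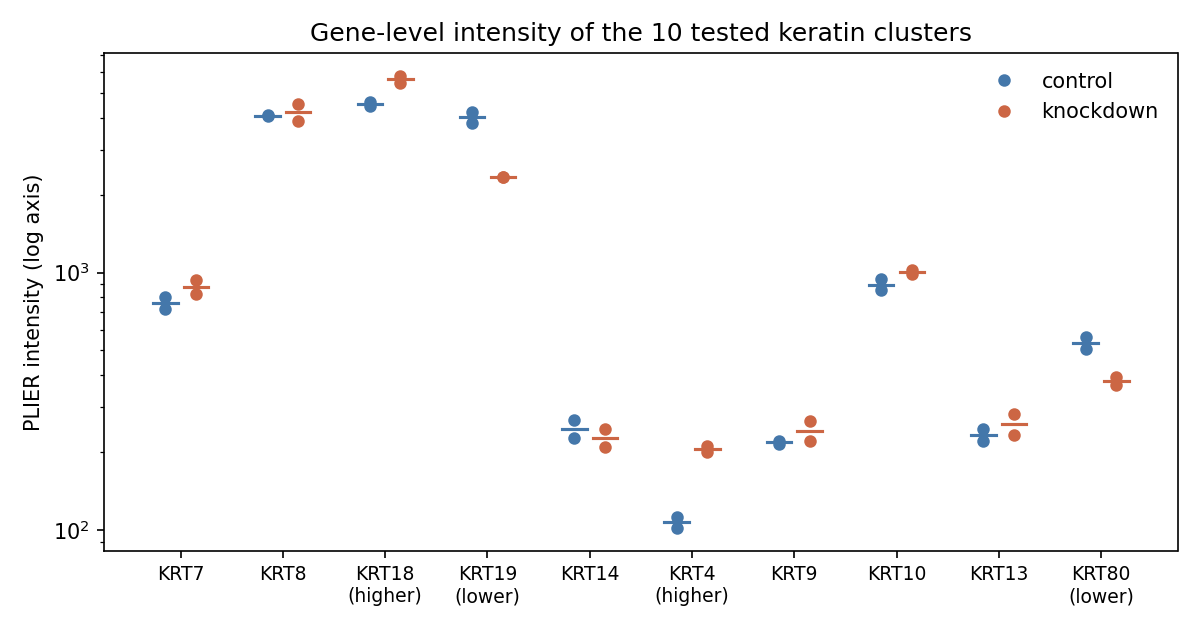
Gene-level PLIER intensity (log axis) of the 10 keratin clusters that passed the dim filter, with 1 point per array, bars at the mean of each group of 2 arrays, and the direction given under the 4 genes that passed the test. KRT19 fell from 3812 and 4204 to 2357 and 2343, and KRT4 rose from 112 and 101 to 201 and 212.

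KRT18, the type I partner of KRT8 in simple epithelia, read 4617 and 4422 in controls and 5829 and 5466 in knockdown arrays. The groups did not overlap, and the log2 difference was 0.32 ± 0.080 (1.25-fold; limma adjusted p = 0.0366). The call was lost without control 1 (adjusted p = 0.0691), control 2 (0.107), knockdown 1 (0.188) or knockdown 2 (0.108), and also without the dim filter (0.0642) or the intensity trend (0.0561), with a log2 difference of 0.27 to 0.37. All 16 of its probesets had a positive log2 difference, from 0.078 to 0.52, yet none passed singly. In 13 both knockdown arrays were above both controls, against 19.4% of all 172398 tested probesets. At an unadjusted p under 0.05 (limma), 5 were higher and 0 lower, where 36231 of all tested probesets passed in either direction. The median over its probesets read 5214 and 4909 in controls and 5860 and 5770 in knockdown arrays, a log2 difference of 0.19 ± 0.090 that did not pass (adjusted p = 0.174). The small upward shift of KRT18 was therefore seen at both levels and passed the test in 1 of them.

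KRT8, the type II partner of KRT18, gave different answers at the 2 levels. Its gene-level cluster read 4086 and 4069 in controls and 4504 and 3899 in knockdown arrays, which overlap (log2 difference 0.039 ± 0.093, adjusted p = 0.811). Leaving out knockdown 1 turned the sign of this value, to -0.064. The 4 gene-level values were identical to those of a single probeset, 3455593, which is 1 of the 18 annotated to KRT8. Such identity was found for 4737 of all clusters (21.5%) and for no other keratin cluster.

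The other probesets of KRT8 stood higher. The first 16 of the 18 by number had log2 differences of 0.22 to 0.77, each with both knockdown arrays above both controls, while probeset 3455593 and the last, 3455594, had 0.039 and 0.080 and overlapping groups. Over all tested probesets, 19.4% had both knockdown arrays above both controls and 31.3% had both below. One KRT8 probeset, 3455575, passed singly, at 3438 and 3398 in controls and 4559 and 4962 in knockdown arrays (log2 difference 0.47 ± 0.11, adjusted p = 0.0420). Leaving out any single array ended that call (adjusted p from 0.0653 to 0.186).

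The median over the KRT8 probesets read 3887 and 3734 in controls and 4548 and 4941 in knockdown arrays. It rose by a log2 difference of 0.32 ± 0.095 (1.25-fold; adjusted p = 0.0481), and this call was lost without control 1 (adjusted p = 0.0708), control 2 (0.119), knockdown 1 (0.0857) or knockdown 2 (0.318), and also without the dim filter (0.0787) or the intensity trend (0.142). Of the medians of all 10146 genes tested this way, 4.78% were higher and 10.7% were lower. RNA from the many processed pseudogenes of KRT8 and KRT18 can bind the same probes, so values of both genes are uncertain to that extent.

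**Figure D2:**
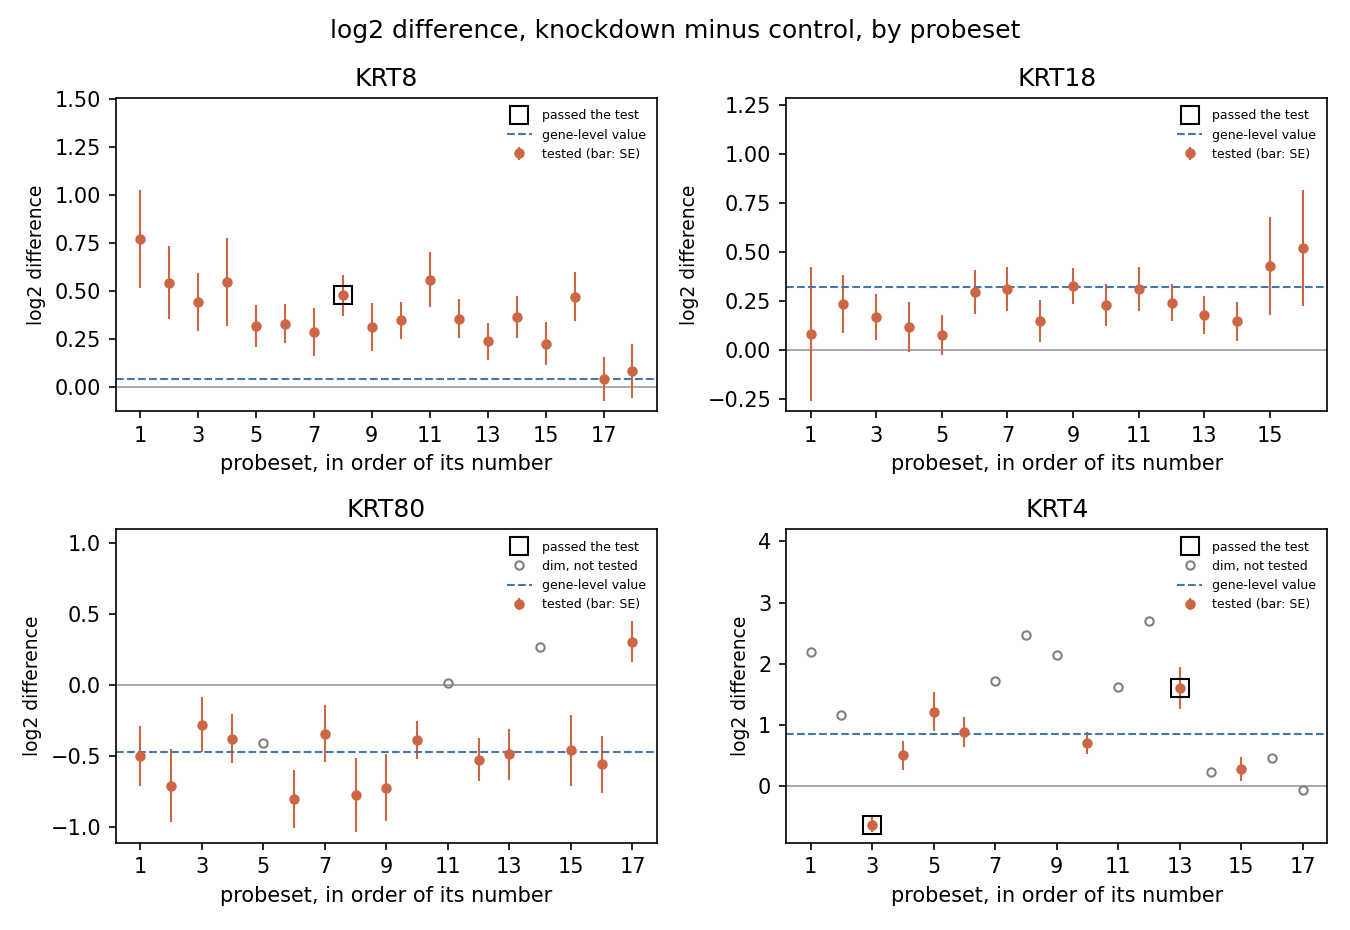
Log2 difference, knockdown minus control, of each probeset of KRT8, KRT18, KRT80 and KRT4 in order of probeset number, with filled points for tested probesets (bars are the SE), open points for dim ones, squares for those that passed and a dashed line for the gene-level value. The first 16 KRT8 probesets lie between 0.22 and 0.77, above the dashed line at 0.039, and 1 bright KRT4 probeset lies at -0.63 while most others are above 0.

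KRT19, a type I keratin of simple epithelia that lacks a tail domain, moved the other way. Its cluster read 3812 and 4204 in controls and 2357 and 2343 in knockdown arrays, and the groups were far apart. The log2 difference was -0.76 ± 0.082 (0.589-fold; limma adjusted p = 0.00359), and the call held in all 13 refitted settings, including each of the 4 arrays left out (adjusted p from 0.0107 to 0.0162 there).

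Both KRT19 probesets were lower, at 3951 and 4274 against 2685 and 2363 (adjusted p = 0.0163) and at 2095 and 2101 against 1454 and 1191 (0.0333). The first lost its call without control 2 (0.0582) or knockdown 2 (0.0533), and the second without control 1 (0.0958), control 2 (0.0833) or knockdown 2 (0.147). Their median fell by 0.68 on the log2 scale (SE 0.11, adjusted p = 0.00368), a call that no left-out array ended. KRT19 had only these 2 probesets annotated to it alone, so its exon-level value rests on a narrow stretch of the gene.

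KRT7, the type II keratin of glandular ducts, read 722 and 805 in controls and 823 and 932 in knockdown arrays. The groups did not overlap, but the log2 difference of 0.20 ± 0.10 did not pass (adjusted p = 0.215). At the exon level 12 of its 15 tested probesets were positive and none passed. At an unadjusted p under 0.05 (limma), 5 were higher and 0 lower, where 36231 of all 172398 tested probesets passed in either direction. The median over KRT7 probesets differed by 0.26 ± 0.13 (limma adjusted p = 0.211). KRT20, a keratin of the gut lining, was dim in every array (42.3 and 50.1 in controls, 52.8 and 42.2 in knockdown arrays).

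Since type I and type II keratins assemble in pairs, the ratio of simple keratins was followed within each array. Relative to the control mean, the log2 ratio of KRT18 to KRT8 was 0.22 and 0.34 in the knockdown arrays at the gene level, but -0.054 and -0.19 over exon-level medians, so its direction depends on which KRT8 value is used. The log2 ratio of KRT19 to KRT18 was -1.13 and -1.04 at the gene level and -0.77 and -0.99 over exon-level medians, and that of KRT19 to KRT8 was -0.90 and -0.70, and -0.83 and -1.18. Relative to KRT8, a type II keratin with which it can pair, and to KRT18, which is type I like itself, KRT19 was lower in both knockdown arrays at both levels. With 2 arrays a group, an exact permutation test cannot give a two-sided p below 0.333.

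The 5 simple keratins together held 53 tested probesets. Of these 1 was higher and 2 were lower, where 1.33% and 3.25% of all 172398 tested probesets were. Their median log2 difference was 0.28, against -0.051 over all tested probesets. In 37 of the 53 both knockdown arrays were above both controls, against 19.4% of all tested probesets. Nearly all of the 53 belong to KRT7, KRT8 and KRT18, and probesets of 1 gene are not independent of each other.

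Basal keratins stayed low or did not pass. KRT14, the type I basal keratin, read 267 and 227 in controls and 210 and 246 in knockdown arrays. These overlap (log2 difference -0.11 ± 0.13, limma adjusted p = 0.595). Its exon-level median was dim, at 72.6 and 55.2 in controls and 47.0 and 51.8 in knockdown arrays. There the groups did not overlap (log2 difference -0.29, not tested), and its 3 tested probesets were negative. KRT15 was dim at the gene level, at 59.4 to 85.7. At the exon level KRT5, the partner of KRT14, had a median of 83.5 and 60.4 in controls and 59.9 and 67.7 in knockdown arrays, which is dim, and KRT17 had 123 and 114 against 123 and 105 (log2 difference -0.049 ± 0.17, adjusted p = 0.886). That KRT17 median is over all 11 probesets. The 6 tested ones had a median log2 difference of -0.47, and none passed (limma, lowest adjusted p = 0.104). In 4 of these 6 both knockdown arrays were below both controls, against 31.3% of all tested probesets. None of the 22 tested probesets of the 4 basal keratins passed in either direction, with a median log2 difference of -0.070. At an unadjusted p under 0.05 (limma), 0 were higher and 4 lower, where 36231 of all 172398 tested probesets passed in either direction. The probesets of KRT14, KRT16 and KRT17 may read near-identical sequences. No probe sequences were compared here, so values of these genes are uncertain.

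The median log2 difference of the simple keratins minus that of the basal keratins was 0.13 at the gene level, where the basal group is KRT14 and KRT15 only, and 0.30 over exon-level medians with all 4 basal keratins. In single knockdown arrays this gap was 0.39 and -0.13 at the gene level, a spread (SD 0.365) larger than the gap itself. Leaving out knockdown 1 turned its sign, to -0.13. The median of the simple keratins at this level, 0.039, is the value of the KRT8 cluster. The spread of the gap between arrays was not computed over exon-level medians. A separation of simple from basal keratins was therefore not resolved at the gene level by these 4 arrays. Over exon-level medians it was not tested.

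The activation keratins, which rise in wounded and hyperproliferative epidermis, were measured at the exon level only. The medians of KRT6B were 130 and 111 in controls and 122 and 115 in knockdown arrays, and the single probeset of KRT6C read 115 and 176 against 108 and 128. Neither passed (adjusted p = 0.934 and 0.475), and the medians of KRT6A (56.6 and 80.5 against 68.7 and 78.1) and KRT16 (77.8 and 55.3 against 85.4 and 57.4) were dim. Of 11 tested probesets 1 was lower, KRT16 probeset 3757199, at 1439 and 1595 in controls and 1007 and 978 in knockdown arrays (log2 difference -0.60 ± 0.14, adjusted p = 0.0421). Leaving out any single array ended this call (adjusted p from 0.0837 to 0.145), and a brighter KRT16 probeset, 3757202, did not pass (4047 and 4025 against 3848 and 3986, adjusted p = 0.862).

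KRT4, the type II keratin that pairs with KRT13 in the lining of the mouth and oesophagus, was the keratin with the largest gene-level rise. Its cluster read 112 and 101 in controls and 201 and 212 in knockdown arrays, and the groups did not overlap. The log2 difference was 0.86 ± 0.12 (1.81-fold; limma adjusted p = 0.00623), and the call held in all 12 settings that tested it, with each array left out in turn among them. The control values lie at the edge of the dim filter, and with the lower 60% left out KRT4 was not tested.

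Probesets of KRT4 did not move as one. Of 7 tested, 6 were positive with both knockdown arrays above both controls, and probeset 3455881 passed, at 85.4 and 41.0 in controls and 184 and 252 in knockdown arrays (log2 difference 1.61 ± 0.34, adjusted p = 0.0341; 0.0833 without control 2 and 0.142 without knockdown 2). Both of its controls lie below the filter intensity of about 96.2, so it was tested only because its knockdown arrays are high, and its test adds no support to the rise. The bright probeset 3455868 went the other way, from 7212 and 6435 to 4761 and 4045 (-0.63 ± 0.12, adjusted p = 0.0234; 0.0992 without control 1 and 0.0778 without knockdown 2). Among the 10 dim probesets of KRT4, 8 had both knockdown arrays above both controls and none had both below. The share over all dim probesets was not computed. Of all tested probesets, 19.4% had both knockdown arrays above both controls. The 6 of 7 tested ones of KRT4 include 3455881, so that count adds no support to the rise either.

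The median over the KRT4 probesets was 55.2 and 41.0 in controls and 154 and 153 in knockdown arrays, a log2 difference of 1.41. It ranked just below the dim filter, at percentile 39.955 of all genes, and so was not among the medians tested; without the filter its adjusted p was 0.00652. KRT13, the partner of KRT4, did not pass. It read 247 and 221 in controls and 234 and 281 in knockdown arrays (log2 difference 0.12 ± 0.13, adjusted p = 0.538).

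KRT80, a type II keratin found near desmosomes in many epithelia, was lower. Its cluster read 506 and 560 in controls and 367 and 393 in knockdown arrays, with a log2 difference of -0.47 ± 0.095 (limma adjusted p = 0.0196). The call was lost without control 2 (adjusted p = 0.0524), knockdown 1 (0.122) or knockdown 2 (0.0863). Of its 14 tested probesets 13 were negative, though none passed singly. In 12 both knockdown arrays were below both controls, against 31.3% of all tested probesets. At an unadjusted p under 0.05 (limma) 9 were lower, where 36231 of all 172398 tested probesets passed in either direction. KRT80 had 17 probesets in all, dim ones among them. Their gene median fell from 368 and 394 to 263 and 266 (log2 difference -0.50 ± 0.14, adjusted p = 0.0376; 0.0609 without the dim filter, and from 0.0554 to 0.147 with 1 array left out, whichever it was).

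KRT9 and KRT10, keratins of differentiated epidermis, were also bright enough to test. KRT10, the type I keratin of suprabasal epidermis, read 852 and 941 in controls and 1020 and 983 in knockdown arrays (log2 difference 0.16 ± 0.085, adjusted p = 0.236), and KRT9, the keratin of palm and sole skin, read 222 and 216 against 221 and 265 (adjusted p = 0.471). Neither passed, although the KRT10 groups did not overlap. KRT1, the type II partner of KRT10, was dim at 49.3 to 55.1.

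Most keratin probesets that passed belonged to 4 type II hair keratins of 1 gene cluster, KRT81, KRT83, KRT85 and KRT86. Over their 29 tested probesets, 17 were lower and 0 higher (limma), against 3.25% lower and 1.33% higher over all tested probesets. At an unadjusted p under 0.05, 19 were lower and 1 higher, where 36231 of all 172398 tested probesets passed in either direction. Those 17 are most of the 21 keratin probesets that were lower. The array annotation assigns each of them to a single gene, but KRT81, KRT83 and KRT86 are closely related copies whose transcripts may bind probes for each other. No probe sequences were compared here, so which of these genes changed is uncertain.

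KRT81 had 9 tested probesets, all negative, and 8 passed, with log2 differences of -0.79 to -1.34. The brightest, 3455267, read 7579 and 6946 in controls and 3926.5 and 3637 in knockdown arrays (log2 difference -0.94 ± 0.11, adjusted p = 0.00286). The median over KRT81 probesets was 1545 and 1426 in controls and 654 and 740 in knockdown arrays, with the groups far apart. It fell by 1.08 on the log2 scale (SE 0.12; 0.474-fold; limma adjusted p = 0.000536), a call that held in all 13 settings. All 8 probeset calls held with each array left out, but all 8 were lost without the dim filter (adjusted p from 0.0774 to 0.130) and 7 of 8 without the intensity trend.

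KRT86 had 8 tested probesets, 7 of them negative, and 3 passed, the largest at 1004 and 899 in controls against 340 and 311 in knockdown arrays (log2 difference -1.50 ± 0.17, adjusted p = 0.00269). Its brightest probeset, 3415383, did not pass and was positive, at 5219 and 4811 against 6156 and 6162 (adjusted p = 0.136). The KRT86 median was 680 and 584 in controls and 368 and 366 in knockdown arrays (log2 difference -0.76 ± 0.13, adjusted p = 0.00590), called in all 13 settings. One of the 3 probeset calls was lost without control 1 (adjusted p = 0.0561).

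In KRT83 and KRT85 some tested probesets passed and others did not. In KRT83 the 4 probesets that passed had control means of 1308 to 1844 and log2 differences of -0.68 to -1.21, while the other 2 tested ones had control means of 132 and 200.3 and differences of 0.24 and -0.080. The 7 dim KRT83 probesets ranged from -0.46 to 1.08. In 4 of them both knockdown arrays were above both controls, and in 1 both were below. Such shares were not computed over all dim probesets, so these counts cannot be set against a background. The KRT83 median therefore read 89.6 and 94.3 in controls and 101 and 110 in knockdown arrays and did not pass (adjusted p = 0.544). One of the 4 KRT83 calls ended with any single array left out (adjusted p from 0.0531 to 0.147).

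In KRT85 the 2 probesets that passed read 1094 and 1239 against 544 and 522 (adjusted p = 0.00724) and 1669 and 1515 against 809 and 812 (0.00864), and both calls held with each array left out but not without the dim filter. A KRT85 probeset as bright as these, 3455318, read 1791 and 1564 against 1539 and 1344 (log2 difference -0.22 ± 0.14, adjusted p = 0.428), and its knockdown arrays were also below both controls. All 6 tested KRT85 probesets were negative, and no difference between them was called in the test of single exons. The KRT85 median was dim at 27.7 to 53.5. Across all 4 genes the probesets that passed had control means of 952 to 7263, and the 24 dim ones ranged in log2 difference from -0.72 to 1.08.

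**Figure D3:**
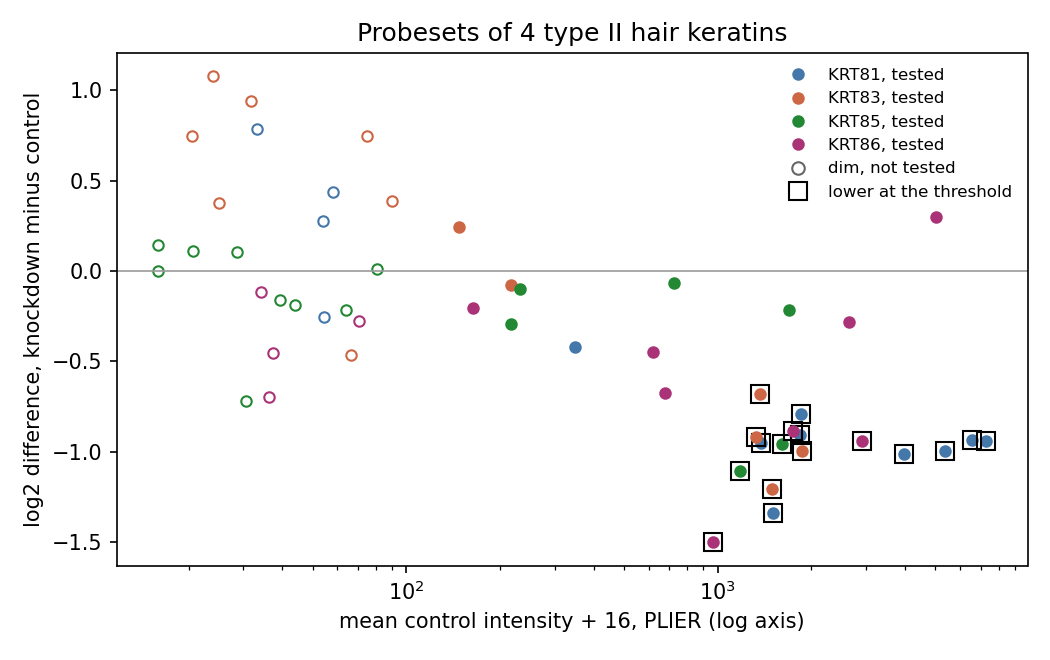
Log2 difference, knockdown minus control, against the mean control intensity + 16 (log axis) for the 53 probesets of KRT81, KRT83, KRT85 and KRT86, with open points for dim probesets and squares for the 17 that were lower at the threshold. The squares lie at control means of 952 to 7263 and differences of -0.68 to -1.50, and the dim probesets spread from -0.72 to 1.08.

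No tested probeset of the other hair keratins passed. Of the 26 tested probesets of type I hair keratins 0 passed in either direction, with a median log2 difference of -0.16. Both knockdown arrays were below both controls in 8 of the 26, close to the 31.3% of all tested probesets. At an unadjusted p under 0.05 (limma), 0 were higher and 1 lower, where 36231 of all 172398 tested probesets passed in either direction. KRT37 was the only type I hair keratin with a median above the filter, at 127 and 100.3 in controls and 111 and 93.3 in knockdown arrays (adjusted p = 0.692). The type II hair keratins KRT82 and KRT84 added 3 tested probesets, none of which passed (0 at an unadjusted p under 0.05).

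The medians of all 9 root sheath keratins were dim. One probeset of KRT75, a type II keratin of the companion layer of the hair follicle, was higher, at 359 and 314 in controls and 729 and 771 in knockdown arrays (log2 difference 1.12 ± 0.17, adjusted p = 0.0112; from 0.0228 to 0.0470 with 1 array left out). It was the only one of the 16 KRT75 probesets above the filter, and the KRT75 median was 22.6 and 29.9 against 12.6 and 24.2, so the median did not share the rise.

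The difference between the types had no settled direction. The median log2 difference of type I minus that of type II was -0.0088 at the gene level, with an SD of 0.022 between arrays, but 0.014 and 0.040 in the single knockdown arrays and -0.15 over exon-level medians. The gene-level value ranged from -0.082 to 0.12 with 1 array left out. Among tested probesets, 0 of 99 of type I were higher and 3 lower, and 3 of 139 of type II were higher and 18 lower. At an unadjusted p under 0.05 (limma), 7 of type I were higher and 8 lower. Of all 172398 tested probesets, 36231 passed that level in either direction. Without KRT81, KRT83, KRT85 and KRT86, 110 type II probesets held 3 higher and 1 lower. The difference between the types was not tested, since members of a family are not replicates.

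Counted over all members, 238 of 691 keratin probesets from 54 genes passed the dim filter, 3 were higher (1.26%) and 21 lower (8.82%), and 214 did not pass. The share of higher calls was near the background of 1.33%, and that of lower calls was above the 3.25% of all probesets through the 4 hair keratins. With each array left out, 16 to 20 probesets were lower and 1 to 4 higher, and 16 of the 24 calls survived every such omission. Without the dim filter none of the 24 passed (adjusted p from 0.0774 to 0.189). Of the 55 gene medians 14 were tested, 1 was higher (KRT8) and 4 were lower (KRT19, KRT80, KRT81 and KRT86). The other 41 were dim, with log2 differences of -0.71 to 0.24 apart from KRT4, and at the gene level the 19 dim clusters had group means of 16.2 to 91.3 and differences of -0.30 to 0.24.

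**Figure D4:**
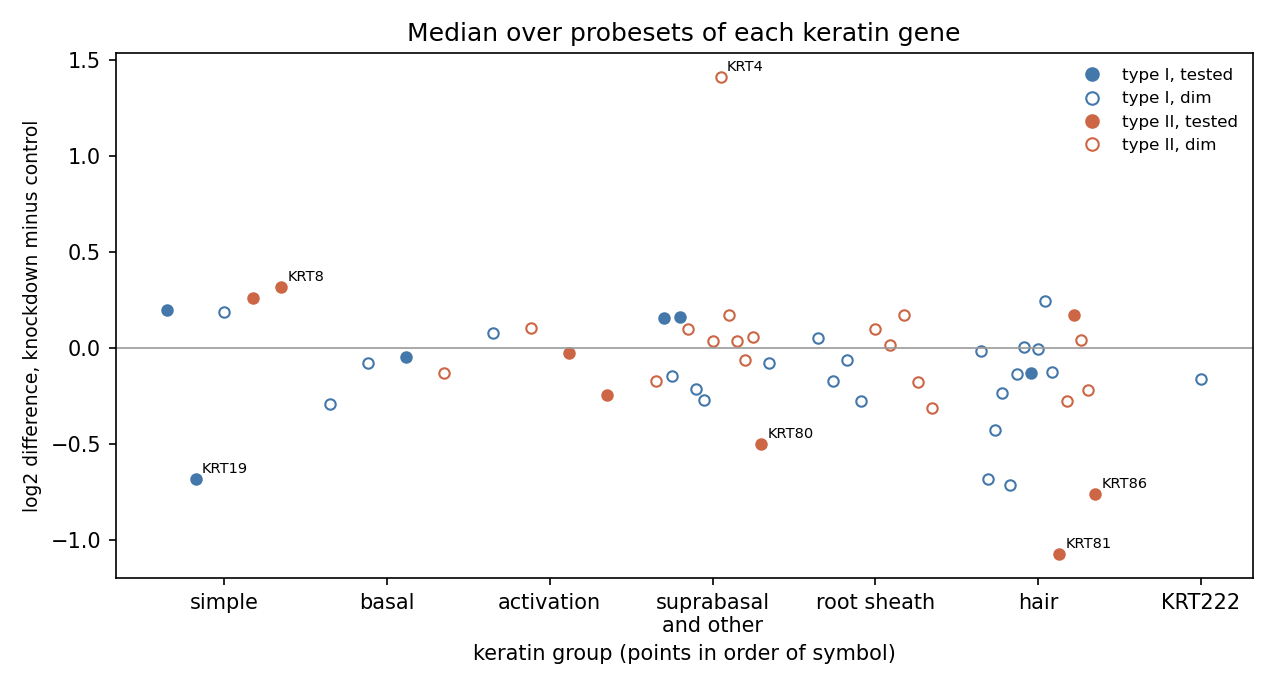
Log2 difference, knockdown minus control, of the median over the probesets of each of the 55 keratin genes, by group, with type I in blue and type II in orange, filled where the median passed the dim filter and open where it was dim. KRT81, KRT86, KRT19 and KRT80 were lower and KRT8 higher at the threshold, and KRT4 stands at 1.41 among the dim genes.

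Single exons were compared with the rest of their gene in 206 keratin probesets. None was called by limma after adjustment, where 0.0142% of all 155392 tested probesets were, and 26 had an unadjusted p under 0.05. The diffSplice test of limma, which scores whole genes, called 2 of 32 keratin genes, KRT4 and KRT83, and 428 of 12211 genes in all.

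Among the partners of keratin filaments, calls stand beside the 5.99% higher and 15.3% lower of all tested clusters, and each list is too short to be set apart from those shares. Of 7 tested desmosome genes 2 were lower, JUP (plakoglobin) at 353 and 381 against 211 and 239 (log2 difference -0.67 ± 0.11, adjusted p = 0.0100; 0.0644 without knockdown 1) and PKP3 at 298 and 301 against 214 and 228 (-0.41, adjusted p = 0.0301; ended by leaving out any single array, 0.0602 to 0.195, by using no filter, 0.0521, and by quantile normalization, 0.0534). The linker DSP did not pass (adjusted p = 0.265). Of 5 tested genes of hemidesmosomes and plakins 2 were lower, ITGA6 (log2 difference -0.38, adjusted p = 0.0151; 0.0829 without knockdown 1 and 0.0971 without knockdown 2) and CD151 (-0.34, adjusted p = 0.0345; 0.0856 without control 1, 0.0970 without knockdown 1, 0.195 without knockdown 2, 0.0673 without the filter, 0.0561 without the trend, 0.0617 after quantile normalization and 0.108 after median centring), while ITGB4 and the plakin PLEC did not pass. ITGA6, CD151 and JUP also act outside keratin anchorage.

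Among 12 tested keratin-binding or keratin-modifying proteins 1 was higher and 2 were lower, close to the 5.99% and 15.3% of all tested clusters. HSPB1, a small heat shock protein that binds keratin filaments, read 1162 and 984 against 1542 and 1608 (log2 difference 0.55 ± 0.099, adjusted p = 0.0142; 0.0727 without knockdown 2). CASP6, a caspase that cleaves KRT18, was lower (-0.61, adjusted p = 0.0155; 0.0934 without knockdown 1), as was SFN, a 14-3-3 protein (-0.39, adjusted p = 0.0170; 0.0800 without knockdown 1 and 0.118 without knockdown 2).

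Of 9 tested intermediate filament genes that are not keratins, LMNA (the lamin A gene) was lower at 1986 and 1871 against 1411 and 1443 (log2 difference -0.43, adjusted p = 0.0131; 0.0754 without knockdown 1 and 0.0705 without knockdown 2). Vimentin, the main filament protein of mesenchymal cells, did not pass (-0.17 ± 0.085, adjusted p = 0.208). Of 10 tested epithelial transcription factors SOX9 (603 and 665 against 231 and 241, log2 difference -1.37, adjusted p = 0.00110) and TFAP2C (1794 and 1838 against 981 and 990, -0.87, adjusted p = 0.00178) were lower, and both calls held in all settings run; 2 lower of 10 is close to the 15.3% of all tested clusters. None of the 2 tested genes of the cornified envelope, TGM1 and LORICRIN, passed (limma adjusted p = 0.142 and 0.433).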

How the data were processed

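The 2 control and 2 knockdown replicates were hybridised to Affymetrix Human Exon 1.0 ST arrays after depletion of ribosomal RNA. Per the labels and the submitters' processing notes, the authors made the PLIER intensities (linear) with Affymetrix Expression Console, whereas the series text credits the Exon Array Computational Tool. No source used here gives versions, background correction or build. Array medians of 168 to 187 (gene level) and 155 to 176 (exon level) were left as they are, and 4 arrays limit the precision of each value.

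Symbols come from the platform annotation, with some updated from RefSeq (12 KRT222 probesets). Promoter sequences are RefSeq's, build GRCh38.p14. Intensities were taken as log2(value + 16), which understates changes of dim genes, and a dim filter removed the 40% of features with the lowest 4-array mean. limma 3.58.1 in R 4.3.3 (lmFit, eBayes with trend, group as the only term, two-sided) was fitted over all features with Benjamini-Hochberg adjustment at 0.05. Gene medians over all probesets of a gene, and each probeset minus the mean of the other tested probesets of its gene (at least 3), were fitted likewise, the last without trend. Data were handled with the R package data.table (version 1.17.8) and pandas 2.3.3, and figures made in Python 3.11.15 (matplotlib 3.10.9). Each fit was tested on simulated data.

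Replicate numbers are in the titles, with no word on what they share. Same-numbered arrays deviated together (correlation over features 0.29 for clusters and 0.30 for probesets), but with 2 pairs the numbers were not taken as pairs.

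Keratins, their groups and the other lists were chosen with earlier results of these data known. Named with values are the keratins that passed, the simple, basal and activation keratins, other keratins above the filter, up to 4 passing members of each other list by p, and ITGA3; KRT1, KRT20, DSP, ITGB4, PLEC, VIM, AXL, TGM1, LORICRIN, the epithelial markers, CD68, PTPRC and single KRT16, KRT85 and KRT86 probesets that did not pass were chosen after their values were seen. GATA3 and FOXA1 were also named after their values were seen. Alternatives were other offsets, filters, variance models, scalings, a replicate block, exon-level medians, diffSplice and each array left out.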

Additional observations from a re-analysis of the deposited data

How the results depend on the processing

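At the gene level the 2 higher and 2 lower keratin calls stood with offsets of 1 or 64, robust variances, quantile normalization or median centring, every cluster counted and the replicate block, while higher calls came to 1 without the filter, with the lower 60% left out, without the intensity trend and on exon-level medians, and lower calls to 4 on those medians. With each array left out there were 1 higher and 1 to 2 lower calls. At the exon level the 3 higher and 21 lower probesets became 0 and 0 without the filter, where 106 keratin probesets had an unadjusted p under 0.05 and limma called 43 higher and 120 lower probesets in all; without the trend they became 1 and 4, and with 1 array left out 1 to 4 and 16 to 20. The samples share only a replicate number, and with it as a block the fit called 29 higher and 31 lower keratin probesets and 10755 and 18204 in all. Keratin exon usage had 0 calls in every limma fit of single probesets and 2 genes by diffSplice. The gap of type I to type II was -0.15 on exon-level medians, -0.037 without hair keratins and -0.082 to 0.12 with 1 array left out; that of simple to basal keratins was -0.13 to 0.39 with 1 array left out. No call turned its direction. Median centring and quantile normalization moved the median of all tested clusters from -0.055 to 0.036 and 0.017, and the calls over all clusters from 791 higher and 2016 lower to 1496 and 1507, and to 1351 and 1674. The causes were not tested. With 2 arrays a group, dim keratins and small shifts such as those of KRT7 and KRT10 could not be resolved.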
